A study of Pleurotus ostreatus with 53 samples.

Results

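DIRS elements are retrotransposons of the tyrosine recombinase order. They move through an RNA copy like other retrotransposons, but insert with a tyrosine recombinase in place of the integrase that Gypsy and Copia elements use. The 35 copies described here are all annotated transposable element (TE) copies of the oyster mushroom Pleurotus ostreatus whose family name starts with DIRS, out of 1051 copies in the deposited tables. No measured value entered this choice. In fungi, cytosine methylation at CG sites and small RNAs are both known to accompany the silencing of transposable elements.

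The study measured mRNA, small RNA and CG methylation in 6 groups, with 3 biological replicates each per the series description. PC15 and PC9 are monokaryotic strains, whose cells carry a single kind of nucleus, and both were grown as mycelium. HyB, spelled N001_HyB in the labels, is the mycelium of the dikaryon obtained by mating PC9 with PC15. The dikaryon N001 (spelled N0001 in its strain tag) gave the remaining groups: mycelium, primordium (the fruiting initial) and fruitbody. The label of HyB also carries the name N001, and how the nuclei of both dikaryons are related was not tested. The labels give no treatment, engineered allele or age for any group. The samples are bulk, so that fewer nuclei or cells with a transcript and less transcript per cell cannot be told apart, and in a dikaryon the reads of the 2 nuclear types are summed.

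There were 18 mRNA, 18 small RNA and 17 bisulfite libraries, the primordium having 2 of the last. The mRNA libraries held 19628882 to 30123572 mapped reads and 41 to 795 reads in DIRS copies. Small RNA reads assigned to genes or TE copies numbered 191411 to 5746479 per library, with 40 to 6094 in DIRS copies. Levels are in RPM, a library's reads scaled to 1e6 of these totals. DIRS copies took 0.0738% to 0.317% of TE mRNA reads and 0.0238% to 0.328% of TE small RNA reads. Methylation values give the CG level per copy, with unknown coverage. The mRNA libraries of replicates 2 and 3 were nearly alike over genes in HyB (chi-square over its degrees of freedom 3.77) and in primordia (1.56), while every other pair within a group stood between 25.7 and 515. They were kept as separate libraries, and summing each pair moved no count of called DIRS copies by more than 1.5 times. Replicate 1 of PC9 stood apart in small RNA: it held 6094 DIRS reads, against 81 and 40 in replicates 2 and 3. TE copies took 32.3% of its small RNA reads, against 6.93% and 7.17% in those replicates, and what sets it apart was not tested.

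The DIRS copies belonged to 3 families and lay on 8 scaffolds. DIRS_1 had 22 copies with a median length of 132.5 bp, DIRS_2 had 7 with a median of 1958 bp, and DIRS_3 had 6 with a median of 533.5 bp. The lengths ran from 58 to 4849 bp, and 11 copies were at least 1000 bp long (5 DIRS_1, 5 DIRS_2 and 1 DIRS_3). The longest were DIRS_1 copies of 4849 bp on scaffold 5 (2820688 to 2825536) and 4578 bp on scaffold 11 (118997 to 123574). They were followed by a DIRS_2 copy of 4097 bp on scaffold 2 (253522 to 257618), a DIRS_1 copy of 3900 bp on scaffold 3 (454463 to 458362) and a DIRS_2 copy of 3805 bp on scaffold 3 (424901 to 428705). The genome build is not given in the sources used here, and coordinates are those of the deposited tables.

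Several long copies were broken, nested or joined to other copies. On scaffold 2, the 4097-bp DIRS_2 copy ran without a gap into a 544-bp DIRS_3 copy (257619 to 258162). Further along, a 986-bp DIRS_3 copy (409524 to 410509), a 1958-bp DIRS_2 copy (410960 to 412917) and an 823-bp DIRS_2 copy (419647 to 420469) followed each other, the last behind a Gypsy copy at 412918 to 419639. On scaffold 3, the 3805-bp DIRS_2 copy overlapped a 1345-bp DIRS_3 copy (427904 to 429248), and a 1286-bp DIRS_1 copy (429936 to 431221) lay next to it with a Gypsy copy (430118 to 430751) inside. Reads shared between overlapping or similar copies cannot be told apart, because the treatment of reads with several matches is not given in the sources used here. DIRS_1 fragments of 70 and 71 bp occurred as a pair on scaffold 7 (from 1502525 and 1511668) and again on scaffold 11 (from 1381693 and 1390998). In each pair the nearest genes lay 255 and 299 bp away and were 1805 and 1553 bp long.

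By methylation the copies fell into 3 sets. In 21 copies the mean of at least 1 group was 3% or more, in 8 copies it was under 3% in all 6 groups, and 6 copies had no value in any library. The 6 copies with no value were DIRS_1 fragments of 70 to 119 bp. All 8 low copies were shorter than 1000 bp (111 to 698 bp, of which 6 were DIRS_1), and their highest group mean was 2.2%. The lowest over all groups were DIRS_1 copies of 199 bp (2831642 to 2831840) and 128 bp (3273653 to 3273780) on scaffold 5 and a DIRS_3 copy of 420 bp on scaffold 11 (2258783 to 2259202), at most 0.591% in any library. Low copies made up 44.4% of the 18 measured DIRS copies under 1000 bp, beside 15.2% of the 545 measured TE copies of that length. None of the 11 long DIRS copies was low, beside 2.31% of the 432 long TE copies measured. A gene lay within 500 bp of all 8 low copies, at 87 to 412 bp, and of 5 of the 21 methylated copies. Another TE copy lay within 10 kb of 4 of the 8 low copies and of 19 of the 21 methylated ones. These shares are descriptions of a small set, and length, gene distance and TE distance moved together in it.

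**Figure D1:**
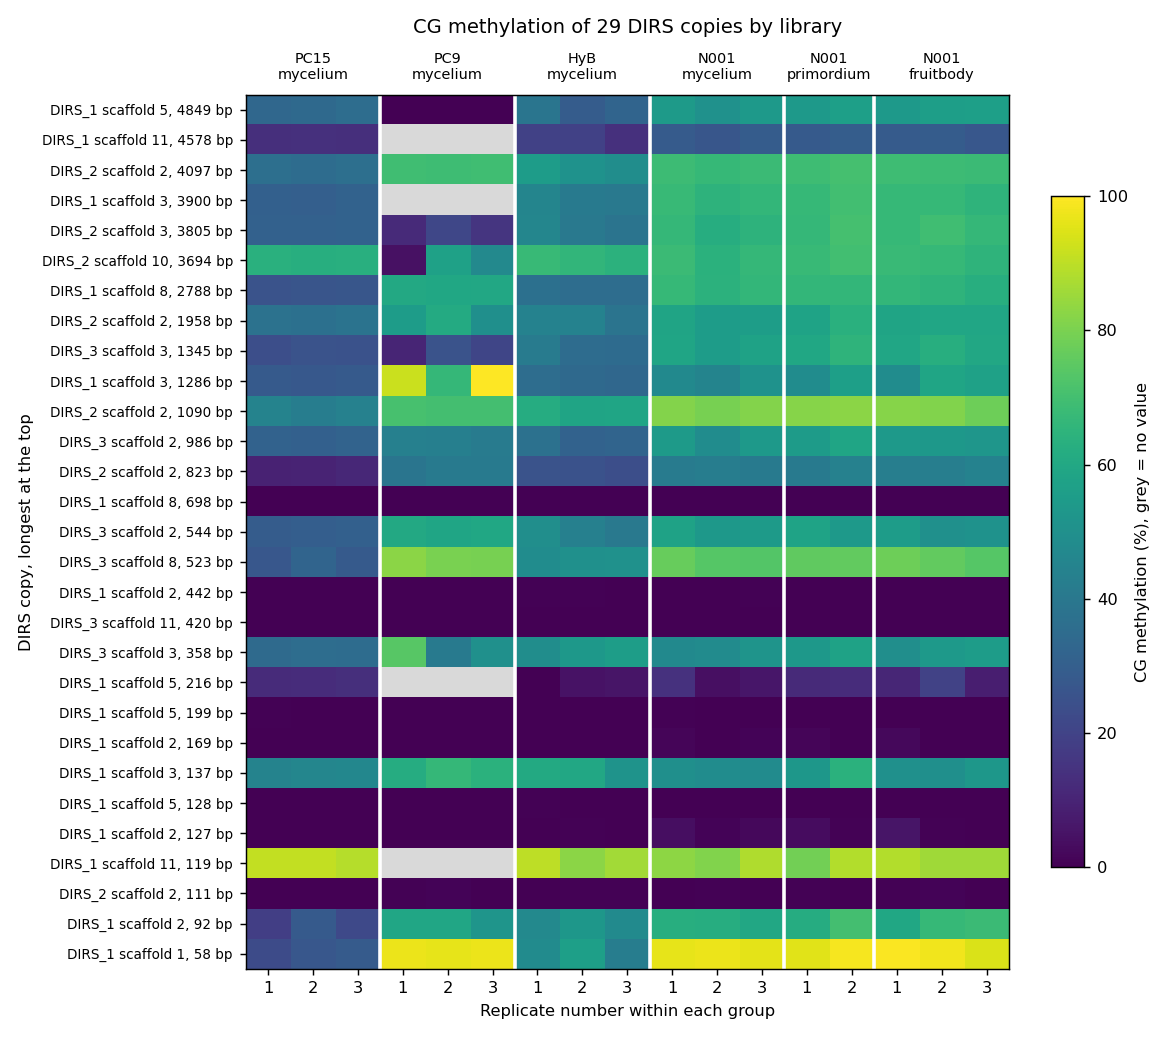
CG methylation (%) of the 29 DIRS copies with a value, 1 row per copy from the longest at the top to the shortest, and 1 column per bisulfite library; grey marks no value. The 8 low copies are dark in every library, PC15 is darker (lower) than N001 in most methylated copies, and the 4849-bp copy is at 0% in the 3 PC9 libraries.

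Most methylated DIRS copies stood higher in PC9 than in PC15, the parental comparison. The median methylated copy stood at 30.96% ± 0.377 (SD, n = 3) in PC15 and at 57.1% ± 4.44 (SD, n = 3) in PC9, over 21 and 17 copies with a value. By limma across all TE copies, 13 of the 25 DIRS copies measured in both strains rose in PC9 and 3 fell, beside 79.5% of all 716 copies tested that rose and 4.19% that fell. The DIRS share that rose was thus below that of all copies, and the 8 low copies, none of which was called, were among the 25. The median difference was 11.5 percentage points over the DIRS copies and 28.2 over all copies tested.

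The largest rises were in copies of very different length. The 58-bp DIRS_1 copy on scaffold 1 (366719 to 366776) stood at 22.8%, 27% and 28.8% in PC15 and at 97%, 96.3% and 97% in PC9. Its libraries did not overlap, with a rise of 70.6 points (SE 2.83, limma adjusted p = 1.68e-11). The 1286-bp DIRS_1 copy on scaffold 3 stood at 28.3%, 27.7% and 28.3% in PC15 and at 92%, 66.5% and 100% in PC9. All PC9 libraries were above PC15 but far apart, with a rise of 58.1 points (SE 6.2, limma adjusted p = 7.30e-07). The 523-bp DIRS_3 copy on scaffold 8 (2420936 to 2421458) went from 29.2% ± 2.59 to 80.7% ± 1.78 (SD, n = 3), a rise of 51.5 points (SE 1.51, limma adjusted p = 7.20e-13).

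The 3 copies that fell in PC9 were all 3694 bp or longer. The 4849-bp DIRS_1 copy on scaffold 5 stood at 33.6%, 34.3% and 35.6% in PC15 and was listed at 0% in all 3 PC9 libraries, a fall of 34.5 points (SE 2.02, limma adjusted p = 9.68e-10). The 3694-bp DIRS_2 copy on scaffold 10 (431877 to 435570) stood at 63.5%, 62.8% and 63.1% in PC15 and at 4.63%, 57.2% and 47.2% in PC9. PC9 replicate 1 was far below the other two, and all PC9 libraries were below PC15 (difference -26.7 points, SE 9.11, limma adjusted p = 0.0145). Without PC9 replicate 1 the difference was -10.9 points (limma adjusted p = 0.00065). The 3805-bp DIRS_2 copy on scaffold 3 stood at 12.1%, 21.3% and 15.6% in PC9 and at 30.9%, 31.1% and 31.4% in PC15 (difference -14.8 points, SE 2.29, limma adjusted p = 3.32e-05). A further 4 methylated copies had values in all other groups but none in PC9: the 4578-bp and 119-bp (66442 to 66560) DIRS_1 copies on scaffold 11, the 3900-bp copy on scaffold 3 and a 216-bp copy on scaffold 5 (2820373 to 2820588). The 216-bp copy lies 99 bp from the 4849-bp copy that was listed at 0% in PC9. Whether PC9 carries these copies, the 4849-bp one included, was not tested, nor was the strain whose genome served for mapping given in the sources used here.

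HyB lay between its parents in most DIRS copies. Of the 17 methylated copies with values in both parents, the HyB mean fell between the parental means in 14 and above both in 3. It lay below the mean of the 2 parental means in 9 of the 17. By limma, 14 of 29 DIRS copies rose and 1 fell in HyB against PC15, beside 37.8% and 10.5% of the 967 copies tested. Against PC9, 5 of 25 rose and 12 fell, beside 4.74% and 76.3% of 718. The 3 comparisons among PC15, PC9 and HyB share libraries, so that they are given side by side only. The 3 largest rises of HyB over PC9 were at the 4849-bp copy (39.0%, 29.3% and 32.3% in HyB, a rise of 33.5 points, SE 2.02, limma adjusted p = 1.80e-09), at the 3694-bp copy (29.4 points, or 13.5 without PC9 replicate 1) and at the 3805-bp copy (25.3 points). In each of these HyB stood near or above PC15. The largest falls were of 51.7 points at the 1286-bp copy (SE 6.2, limma adjusted p = 2.94e-06) and of 47.8 points at the 58-bp copy (SE 2.83, limma adjusted p = 1.54e-09), without overlap.

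Against PC15, the largest rises were those of the 92-bp DIRS_1 copy on scaffold 2 (1620446 to 1620537) and of the 58-bp copy. The 92-bp copy stood at 18.5%, 28.3% and 22.3% in PC15 and at 47.3%, 53% and 48% in HyB, without overlap (26.4 points, SE 3.14, limma adjusted p = 1.14e-05). The 58-bp copy stood at 48.3%, 56.5% and 42.3% in HyB, above every PC15 and below every PC9 library (22.8 points over PC15, SE 2.84, limma adjusted p = 1.70e-05). The 216-bp copy on scaffold 5 fell from 12.3%, 12.6% and 13.3% in PC15 to 0%, 4.86% and 5.6% in HyB (-9.24 points, SE 3.03, limma adjusted p = 0.0254). That call was lost without any of the 3 PC15 replicates or without HyB replicate 1 (limma adjusted p = 0.0549 to 0.0986). The 5th rise over PC9 was in the 442-bp low copy on scaffold 2 (1186239 to 1186680), from 0.149% to 0.485%, and was lost without PC9 replicate 2 or 3 or HyB replicate 1 or 2 (limma adjusted p = 0.0527 to 0.167). That copy is named because the count is small, after its values were seen. Among the other calls, the rise over PC15 at the 358-bp DIRS_3 copy on scaffold 3 was lost without any PC15 replicate or HyB replicate 2 or 3 (limma adjusted p = 0.0560 to 0.0765), and that at the 4578-bp copy without any PC15 replicate or HyB replicate 1 or 2 (limma adjusted p = 0.0694 to 0.126). The fall from PC9 at the 92-bp copy was lost without PC9 replicate 1 or 2 or HyB replicate 1 or 3 (limma adjusted p = 0.111 to 0.132), and that at a 137-bp copy on scaffold 3 without PC9 replicate 2 or 3 or HyB replicate 3 (limma adjusted p = 0.0575 to 0.171).

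N001 mycelium was more methylated than HyB at most methylated DIRS copies, although both are dikaryons. This comparison shares the HyB libraries with those above. The median methylated copy stood at 43.3% ± 2.75 in HyB and 57.2% ± 1.74 in N001 mycelium (SD, n = 3). By limma 15 of 29 DIRS copies rose and 1 fell, beside 72.9% and 3.83% of the 966 copies tested. The 58-bp copy stood at 96.3%, 97.3% and 96% in N001 mycelium, a rise of 47.5 points over HyB (SE 2.84, limma adjusted p = 2.27e-09), within a point of its PC9 level. The 2788-bp DIRS_1 copy on scaffold 8 (2287013 to 2289800) stood at 36.9%, 35.9% and 35.8% in HyB and at 67.0%, 64.1% and 66.4% in N001 mycelium (29.6 points, SE 1.0, limma adjusted p = 9.06e-12). The groups did not overlap in either copy.

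The fall was at the 137-bp DIRS_1 copy on scaffold 3 (653572 to 653708), with 60.7%, 59.8% and 51.3% in HyB and 49.8%, 48.8% and 48.4% in N001 mycelium (-8.28 points, SE 2.71, limma adjusted p = 0.0129). It was lost without HyB replicate 1 (limma adjusted p = 0.0607) or 2 (limma adjusted p = 0.0541). Of the 17 copies measured in both parents, N001 mycelium stood above PC15 in 17 and above HyB in 15, and within 10 points of PC9 in 10. The 3694-bp copy on scaffold 10 stood at 63.1% ± 0.343 in PC15, 65.7% ± 1.41 in HyB and 66.2% ± 1.97 in N001 mycelium (SD, n = 3), and only the comparisons with PC9 passed the test there. N001 mycelium against HyB was called in 9 of the 11 long copies, the others being this copy and the 1286-bp copy. The 1286-bp copy stood at 35.8%, 34.2% and 33.3% in HyB and at 47.3%, 45.2% and 51.0% in N001 mycelium, without overlap. The spread used in its test covers all 6 groups, among them PC9 at 92%, 66.5% and 100%.

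No DIRS copy was called for methylation during fruiting. By limma 0 of 29 changed between mycelium and primordium and 0 of 29 between primordium and fruitbody, with 2 and 1 at an unadjusted p under 0.05. Of all copies tested, 0.103% were called in each of these comparisons. The median methylated copy stood at 62.3% ± 3.91 (SD, n = 2) in primordia and 60.7% ± 1.88 (SD, n = 3) in fruitbodies. The most methylated copies with a value in every group were the 58-bp copy, the 1090-bp DIRS_2 copy on scaffold 2 (1619347 to 1620436) and the 523-bp DIRS_3 copy. In fruitbodies they stood at 97.1% ± 2.57, 80.3% ± 2.05 and 75.8% ± 2.08 (SD, n = 3).

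The low copies were all short, but length did not order the methylated copies. Over all measured copies, the Spearman rank correlation of length with methylation was 0.41 in PC15, 0.15 in HyB and 0.27 in N001 mycelium (n = 29 each) and 0.09 in PC9 (n = 25). Over the methylated copies alone it was 0.10 in PC15, -0.33 in HyB and -0.06 in N001 mycelium (n = 21 each) and -0.47 in PC9 (n = 17). Copies share libraries and some are parts of nested insertions, so that these are descriptions. In N001 mycelium the median of the 11 long copies was 64.5% ± 2.06 and that of the 10 methylated copies under 1000 bp was 53.8% ± 2.56 (SD, n = 3). In PC9 the order was the other way round, 54.9% ± 4.998 over 9 long copies and 58.6% ± 2.63 over 8 short ones, within the spread between libraries. In HyB it was likewise, 41.0% ± 2.82 over the long copies and 48.4% ± 3.21 over the short methylated ones, and there the libraries did not overlap (highest 44.15% and lowest 45.1%).

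**Figure D2:**
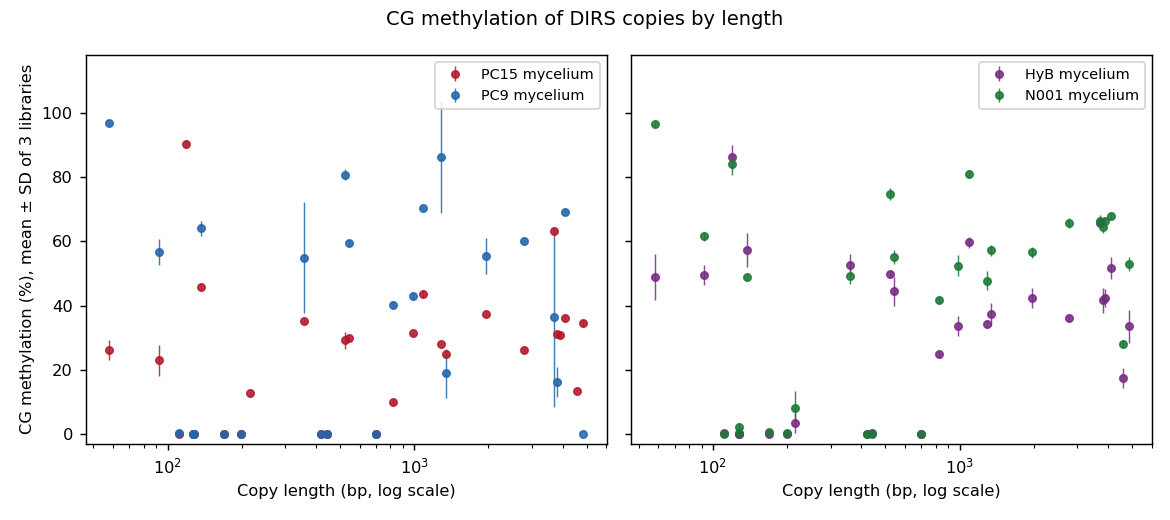
CG methylation (%, mean ± SD of 3 libraries) against copy length (bp, log scale), with PC15 and PC9 on the left and HyB and N001 mycelium on the right; each point is a DIRS copy. The 8 copies near 0% in every group are all shorter than 1000 bp, while copies of 58 to 137 bp also include levels above 45%. The 4849-bp copy lies at 0% in PC9 only.

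DIRS mRNA was highest in PC15. The sum over the 35 copies was 29.005, 20.3 and 20.8 RPM in PC15 and 2.34, 1.68 and 2.01 RPM in PC9. It was 8.32, 4.02 and 3.60 RPM in HyB, 5.91, 4.47 and 3.98 RPM in N001 mycelium, 3.17, 2.28 and 2.73 RPM in primordia and 3.07, 2.38 and 1.75 RPM in fruitbodies. Every PC15 library was above every other library, and replicate 1 was the highest of its group in all 6 groups. Of the 3037 mRNA reads in DIRS copies, 87.4% lay in 4 copies, 8 copies had no read and 24 had fewer than 20. Copies with at least 1 read numbered 25 in PC15 and 14 in PC9.

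**Figure D3:**
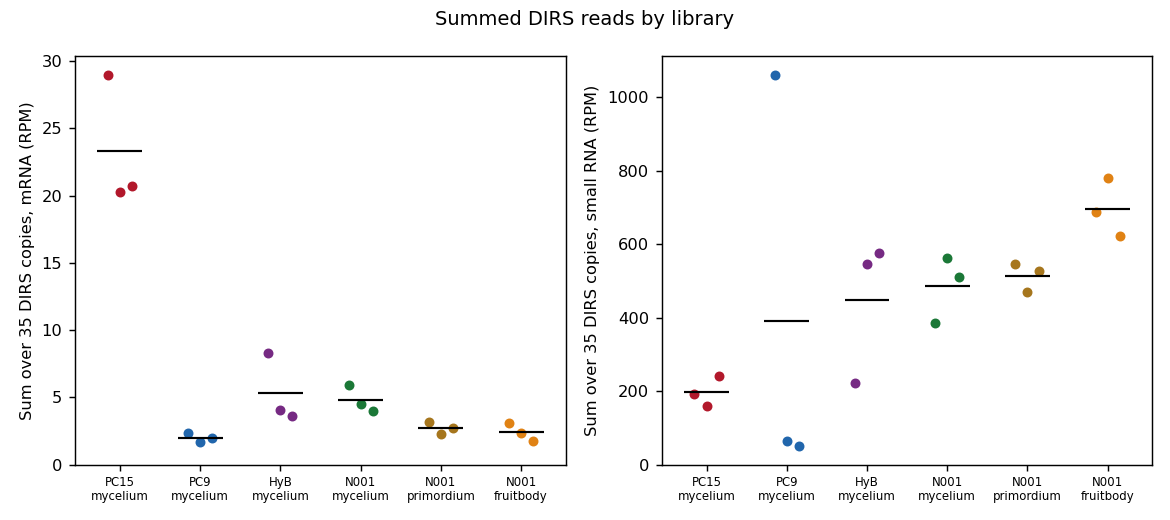
Sum of reads over the 35 DIRS copies in each library (RPM), mRNA on the left and small RNA on the right; points are libraries and bars are group means of 3. The 3 PC15 libraries lead in mRNA, and PC9 replicate 1 stands at 1060 RPM in small RNA, above all other libraries.

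Those 4 of the 35 copies alone passed the filter on low counts. All had their most reads in PC15. They are a small set selected by read number, so their count is no support for a statement on DIRS copies in general. By edgeR's quasi-likelihood test, 4 of 4 fell in PC9 against PC15, beside 84.8% of all 428 copies tested that fell and 3.74% that rose. In HyB against PC15, 3 of 4 fell (73.4% of all fell and 4.44% rose), and in HyB against PC9, 2 of 4 rose (43.7% of all rose and 5.37% fell). These comparisons share libraries. The median log2 difference of PC9 against PC15 was -4.67 over the 4 copies and -7.36 over all 428, or -5.98 where copies with no read in a group were set to 3 reads over that group.

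The 4578-bp DIRS_1 copy on scaffold 11 had the most reads, 1004. It stood at 8.61, 5.84 and 6.65 RPM in PC15, had 1, 2 and 0 reads in PC9, and stood at 3.74, 1.63 and 1.06 RPM in HyB. The 3 groups did not overlap, with PC9 lowest and HyB in between. The log2 difference was -7.23 (SE 0.93) for PC9 against PC15 (edgeR adjusted p = 5.06e-08), 5.53 (SE 0.90) for HyB against PC9 (edgeR adjusted p = 6.89e-06) and -1.71 (SE 0.67) for HyB against PC15 (edgeR adjusted p = 0.0210). The last call was lost without HyB replicate 2 (edgeR adjusted p = 0.0738) or replicate 3 (edgeR adjusted p = 0.0996). In N001 the copy stood at 3.05, 2.19 and 1.64 RPM in mycelium, 1.34, 0.634 and 1.15 RPM in primordia and 1.37, 0.448 and 0.448 RPM in fruitbodies. It was methylated at 13.5% in PC15 and 28.2% in N001 mycelium, the lowest level among the long copies in both, and had no value in PC9.

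The 4849-bp DIRS_1 copy on scaffold 5, the longest, differed in that HyB lay near PC9. It stood at 6.46, 5.89 and 6.18 RPM in PC15, 0.121, 0.205 and 0.447 RPM in PC9 and 0.629, 0.306 and 0.480 RPM in HyB. The PC15 libraries lay apart from all others, and those of PC9 and HyB overlapped. The log2 difference was -4.57 (SE 0.73) for PC9 against PC15 (edgeR adjusted p = 1.74e-06) and -3.68 (SE 0.69) for HyB against PC15 (edgeR adjusted p = 3.21e-05). HyB against PC9 was not called (0.88, SE 0.69, edgeR adjusted p = 0.297). PC9 had the lowest mRNA mean of the 6 groups at this copy, overlapping every group but PC15, and a listed methylation of 0%.

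Both shorter copies with reads differed in methylation. The 823-bp DIRS_2 copy on scaffold 2 stood at 8.50, 3.97 and 3.30 RPM in PC15, 1.17, 0.777 and 1.21 RPM in PC9 and 0.769, 0.662 and 0.576 RPM in HyB. PC15 lay above both other groups without overlap, by a log2 difference of -2.32 (SE 0.65) for PC9 (edgeR adjusted p = 0.00147) and -2.96 (SE 0.67) for HyB (edgeR adjusted p = 0.000227). Its methylation was 10.2% in PC15 and 40.4% in PC9, the opposite order. HyB, at 24.9%, lay below PC9 in methylation and also in mRNA, where the difference was not called. The 698-bp DIRS_1 copy on scaffold 8 (2073449 to 2074146) is a low copy, at most 0.385% in any library. It stood at 3.36, 1.96 and 1.99 RPM in PC15, had 2, 1 and 3 reads in PC9, and stood at 2.27, 0.560 and 0.528 RPM in HyB. PC9 lay below both without overlap (log2 difference to PC15 of -4.77, SE 0.85, edgeR adjusted p = 8.19e-06; HyB over PC9 by 3.67, SE 0.84, edgeR adjusted p = 0.000513), and HyB and PC15 overlapped. Its nearest gene, number 1078878 at 149 bp, stood at 4.72 RPKM in PC15 and 9.20 RPKM in PC9 (RPM per kb of length), not in the order of the copy, and whether reads of the copy belong to that gene's transcripts was not tested.

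Per length, the 4 copies were at low levels even in PC15. They stood at 6.39 ± 3.44 RPKM (823 bp), 3.49 ± 1.14 RPKM (698 bp), 1.54 ± 0.311 RPKM (4578 bp) and 1.27 ± 0.0589 RPKM (4849 bp; SD, n = 3), and each neighbouring pair in that order overlapped except the 698-bp and 4578-bp copies.

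None of the 4 copies was called in N001 mycelium against HyB, primordium against mycelium or fruitbody against primordium by edgeR, with 0 at an unadjusted p under 0.05 in each and 0 by DESeq2. Of all 428 copies, 1.64% rose and 37.6% fell in the first, 0.467% rose and 2.34% fell in the second, and 0 were called in the last (20 at an unadjusted p under 0.05). The scaling decides part of the mRNA result. TMM factors taken inside the TE table, which assume that most copies do not change, moved the median of all copies by 3.80 on the log2 scale for PC9 against PC15 and by 3.28 for HyB against PC15. Relative to the other copies, the 4578-bp copy was still lower in PC9 (-3.53, edgeR adjusted p = 0.000399), the 823-bp copy turned to higher (1.62, edgeR adjusted p = 0.00999), and the other two were not called. Under that scaling HyB against PC15 had no call, the 4578-bp copy turned to 0.66, and HyB against PC9 had 2 higher and 1 lower. The split of all copies for PC9 against PC15 became 26.1% higher and 58.9% lower, that for HyB against PC15 24.2% and 37.6%, and that for HyB against PC9 40.1% and 17.8%.

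**Figure D4:**
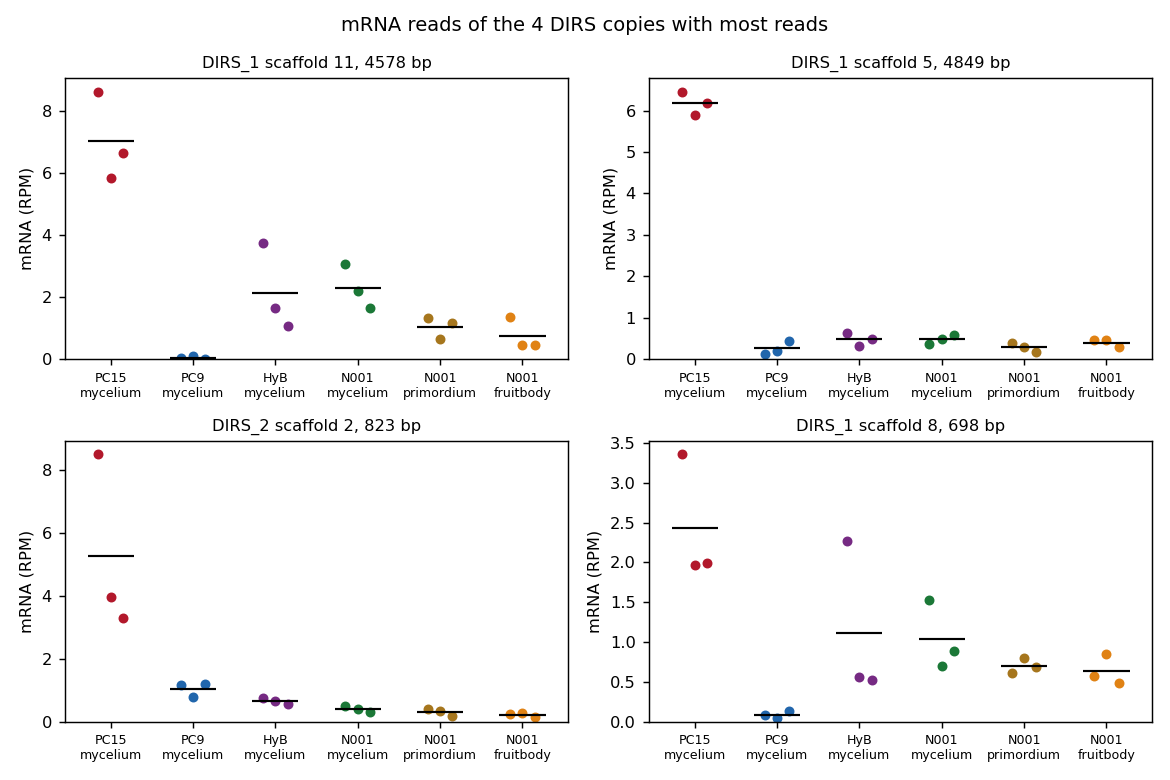
mRNA (RPM) of the 4 DIRS copies with most reads in each library; points are libraries and bars are group means of 3, and each panel has its own axis from 0. PC15 leads in each panel, HyB and N001 mycelium lie between PC15 and PC9 in both DIRS_1 copies of 4578 and 698 bp, and near or below PC9 in the other two.

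DIRS small RNA did not follow the mRNA order. The sum over the 35 copies was 193, 159 and 241 RPM in PC15 and 1060, 63.5 and 49.98 RPM in PC9. It was 223, 545 and 577 RPM in HyB, 385, 563 and 511 RPM in N001 mycelium, 546, 469 and 526 RPM in primordia and 687, 778 and 621 RPM in fruitbodies. In RPM and without PC9 replicate 1, all PC9 libraries lay below all PC15 libraries and these below all N001 libraries. HyB replicate 1 lay within the PC15 range. The order of PC15 and N001 mycelium depends on the total used, which includes TE reads. TE copies took 66.8% to 68.8% of that total in PC15 and 29.6% to 30.8% in N001 mycelium. Replicate 1 of PC15 and of N001 mycelium held 254 DIRS reads each, beside 416213 and 457293 gene reads, so that PC15 was the higher per gene read there. PC15 was also higher in replicate 3 (145 reads beside 187936, against 381 beside 524675). In replicate 2 it was lower (102 beside 212304, against 424 beside 522607), and both groups overlapped. Per gene read, every primordium and fruitbody library still lay above every PC15 library. Of 11089 small RNA reads in DIRS copies, 76.1% lay in 4 copies and 51.7% in the 986-bp DIRS_3 copy on scaffold 2, of which 4476 reads came from PC9 replicate 1 alone. The sizes and strands of these reads were not analysed here.

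By edgeR 13 of the 35 copies passed the filter on low counts, 8 of them at least 1000 bp long. In PC9 against PC15, 4 rose and 3 fell, beside 16.9% and 29.4% of all 633 copies tested. In HyB against PC15, 2 rose (19.6% of all rose and 3% fell), and in HyB against PC9, 4 rose (33.2% of all rose and 2.21% fell). The median log2 difference of PC9 against PC15 was -0.85 over the 13 and -1.14 over all copies. In the comparisons of N001 mycelium with HyB, of primordium with mycelium and of fruitbody with primordium, 0 of 13 were called by edgeR, with 0, 2 and 0 at an unadjusted p under 0.05, beside 1.11% of all copies that rose and 14.8% that fell in the first and 0 called in the others. DESeq2 called 2 of 10 DIRS copies higher in the first, beside 13.5% of all 608 copies that rose and 20.9% that fell. It called 0 DIRS copies in each of the others, beside 0.493% each way of all copies in the second and 0 in the last.

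Of the 4 rises in PC9, 3 were lost without replicate 1. The 986-bp DIRS_3 copy stood at 20.5, 7.81 and 23.3 RPM in PC15 and at 779, 12.5 and 11.2 RPM in PC9. Its groups overlapped, with PC9 replicate 1 far above all others (log2 difference 3.95, SE 1.30, edgeR adjusted p = 0.0197). Without that library the difference was -0.53 (edgeR adjusted p = 0.543). The calls at the 544-bp DIRS_3 and 823-bp DIRS_2 copies, both on scaffold 2, were likewise lost without it, at log2 differences of 1.28 and 0.30 (edgeR adjusted p = 0.384 and 0.850). With replicate 1 of every group left out, the 544-bp copy had no read in PC15 and 2 and 3 reads in PC9 (edgeR adjusted p = 0.0504). The call at the 986-bp copy was also lost without any of the 3 PC15 replicates (edgeR adjusted p = 0.0503 to 0.0723). That at the 544-bp copy was lost without PC15 replicate 2 or 3 (edgeR adjusted p = 0.0833 to 0.0842), and that at the 823-bp copy without PC15 replicate 1 or 2 (edgeR adjusted p = 0.0841 to 0.0950).

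The 1090-bp DIRS_2 copy on scaffold 2 was the rise whose groups did not overlap. It had 3, 2 and 1 reads in PC15 and 431, 22 and 13 reads in PC9, with a log2 difference of 3.89 (SE 1.06, edgeR adjusted p = 0.00660). Without PC9 replicate 1 the difference was 2.75 (edgeR adjusted p = 0.0174). Its methylation was also higher in PC9, at 70.4% against 43.7%.

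Small RNA fell in PC9 at 3 copies. The 119-bp DIRS_1 copy on scaffold 11 from 66442 held 50, 30 and 89 reads in PC15 and none in PC9, which is at least 172-fold lower against a floor of 3 reads over the PC9 group (edgeR adjusted p = 0.000503). HyB held 1, 6 and 19 reads there, at least 21.9-fold above the same floor (edgeR adjusted p = 0.00490). Both bounds rest largely on PC9 replicate 1, with 5746479 small RNA reads against 1275284 and 800397 in replicates 2 and 3. They would be smaller without it, where both calls remained (edgeR adjusted p = 0.00111 against PC15 and 0.0128 for HyB). N001 mycelium stood at 36.3, 37.2 and 28.2 RPM. The copy was methylated at 90.1% ± 1.19 in PC15 (SD, n = 3), the highest PC15 level of any DIRS copy, and had no methylation value in PC9. Copies of the same length and family on scaffold 7 (3249639 to 3249757) and scaffold 11 (39152 to 39270) held at most 17 reads in any library, and reads of such fragments may be shared among them.

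The 2788-bp DIRS_1 copy on scaffold 8 had 8, 4 and 3 reads in PC15, 5, 0 and 0 in PC9 and 4, 5 and 11 in HyB. In RPM PC9 lay below both without overlap (log2 difference to PC15 -3.41, SE 1.18, edgeR adjusted p = 0.0262; HyB over PC9 3.58, SE 1.18, edgeR adjusted p = 0.0247). The fall in PC9 was lost without PC15 replicate 2 or PC9 replicate 2 or 3 (edgeR adjusted p = 0.0514 to 0.0743), and the rise in HyB without PC9 replicate 2 or 3 or HyB replicate 3 (edgeR adjusted p = 0.0688 to 0.0795). The 3694-bp DIRS_2 copy on scaffold 10 stood at 13.7, 4.69 and 18.3 RPM in PC15 and at 0.870, 2.35 and 1.25 RPM in PC9, without overlap. Its log2 difference was -2.98, with an SE of 0.99 (edgeR adjusted p = 0.0202). That call was lost without PC15 replicate 3 (edgeR adjusted p = 0.0619) or PC9 replicate 3 (edgeR adjusted p = 0.0542), and the sign turned under TMM inside the TE table (0.27).

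Both rises of HyB over PC15 lay in the nested locus on scaffold 3. The 1286-bp DIRS_1 copy held 50, 0 and 1 reads in PC15, 52, 4 and 0 in PC9 and 169, 236 and 289 in HyB. HyB lay above both parents without overlap, by a log2 difference of 4.09 over PC15 (SE 1.42, edgeR adjusted p = 0.0435) and 5.70 over PC9 (SE 1.53, edgeR adjusted p = 0.00779). The 1345-bp DIRS_3 copy held 1, 0 and 3 reads in PC15, 1, 1 and 0 in PC9 and 3, 39 and 58 in HyB. It rose by 4.20 over PC15 (SE 1.27, edgeR adjusted p = 0.0230), where HyB replicate 1 overlapped PC15, and by 6.37 over PC9 (SE 1.39, edgeR adjusted p = 0.00248). Each rise over PC15 was lost without HyB replicate 2 or 3 (edgeR adjusted p = 0.0691 to 0.0976) and without some PC15 replicates: 1 or 2 for the 1345-bp copy and 2 or 3 for the 1286-bp copy (edgeR adjusted p = 0.0865 to 0.148). Without HyB replicate 1 the calls over PC15 numbered 5, all higher. One was the 523-bp DIRS_3 copy of scaffold 8, with no read in PC15 and 21 and 34 reads in HyB replicates 2 and 3. It passed the filter there only through those 2 libraries, so that it had to differ, and its call is no support. The same holds for its calls where a PC15 replicate, PC9 replicate 1 or replicate 1 of every group was left out.

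At this locus methylation and small RNA ranked the strains differently in the 1286-bp copy. Its methylation was 28.1% in PC15, 34.4% in HyB and 86.2% in PC9, whereas small RNA was highest in HyB. The 1345-bp copy was methylated at 25.0% in PC15, 18.9% in PC9 and 37.3% in HyB, so that HyB led in both readouts there. In N001 mycelium the 2 copies held 59, 33 and 33 reads and 7, 9 and 13 reads. The 3805-bp copy, which overlaps the 1345-bp copy, had no small RNA call in any comparison.

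The 4097-bp DIRS_2 copy on scaffold 2, among the 3 copies with the highest mean small RNA level, was not called in any comparison. It stood at 8.35, 6.25 and 6.64 RPM in PC15, 36.5, 9.41 and 9.995 RPM in PC9 and 6.61, 40.02 and 47.7 RPM in HyB. HyB replicate 1 lay with PC15 and the other two far above (log2 difference 2.12, SE 0.90, edgeR adjusted p = 0.0959). It stood at 39.4, 31.9 and 28.2 RPM in N001 mycelium, 126, 77.4 and 108 RPM in primordia and 94.7, 146 and 73.5 RPM in fruitbodies, so that every library of the fruiting stages lay above those of the mycelium without a call.

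Under other scalings the small RNA splits moved. With TMM inside the TE table, the DIRS calls were 4 higher and 1 lower for PC9 against PC15, 4 higher for HyB against PC15, 3 higher and 3 lower for HyB against PC9, and 3 higher for N001 mycelium against HyB, over 10 copies tested. The median of all copies moved by 2.68, 0.37, -2.02 and 1.08 on the log2 scale. The split of all copies for PC9 against PC15 became 37.99% higher and 18.3% lower, and that for HyB against PC15 28.1% and 3.1%. For HyB against PC9 it was 19.1% and 18.8%, and for N001 mycelium against HyB 15.13% each. With TMM factors from the gene table, PC9 against PC15 split into 15.6% higher and 15.8% lower over all copies, with 4 higher and 2 lower among DIRS copies.

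**Figure D5:**
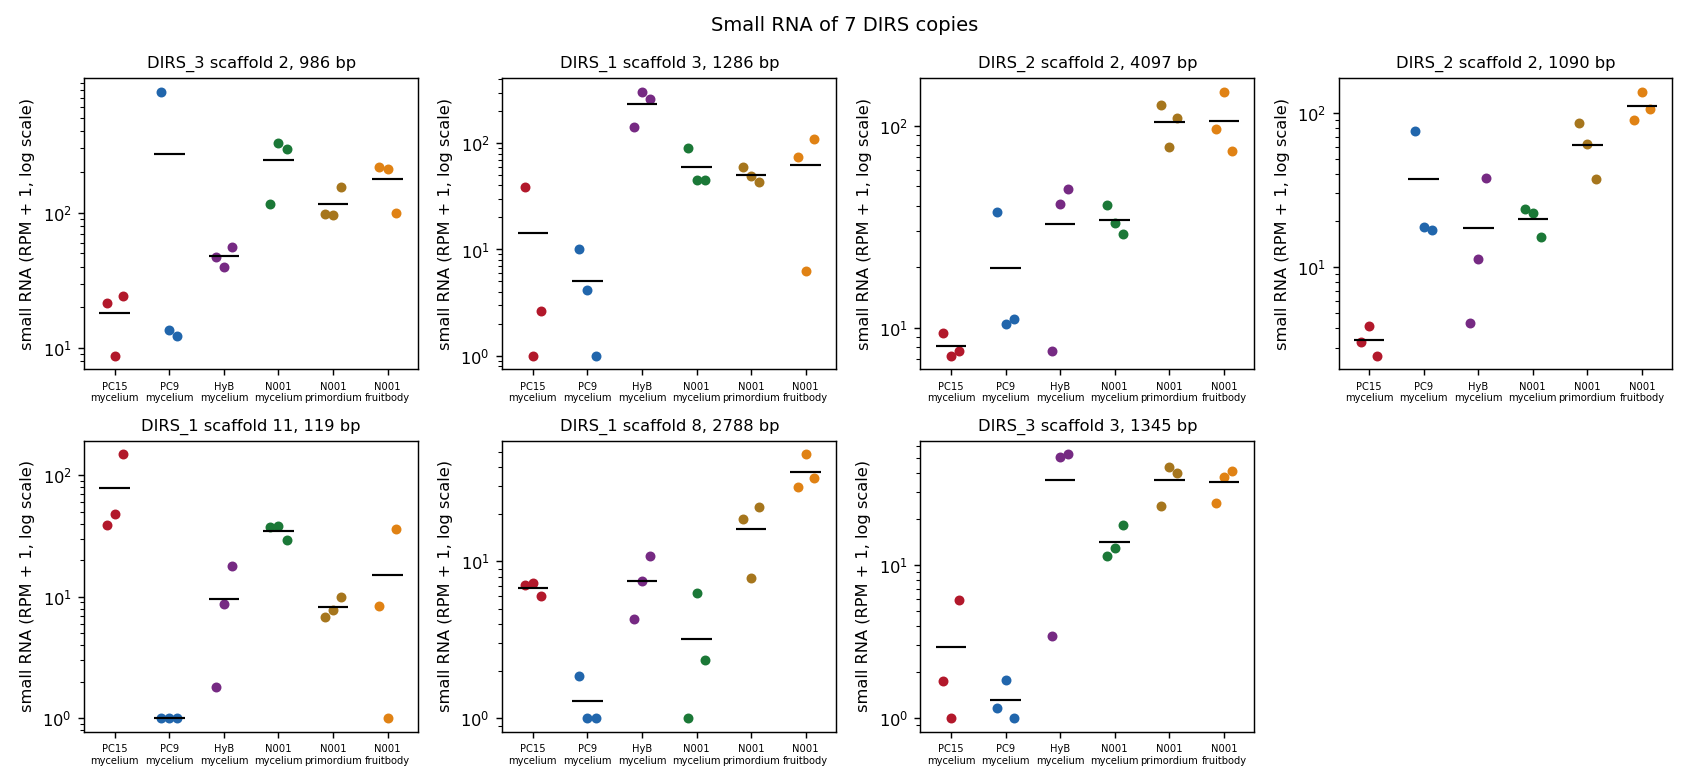
Small RNA (RPM + 1, log scale) of the 7 DIRS copies named for their small RNA in each library; points are libraries and bars are group means of 3, so a library with no read lies at 1. PC9 replicate 1 lies far above replicates 2 and 3 in the 986-bp copy, HyB leads in the 1286-bp copy, and the 119-bp copy has no read in PC9.

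Genes near DIRS copies are known here by number only, and their differences were not tested; the 4 named next were chosen after their values were seen. Gene 153737, 100 bp from the 58-bp copy, stood at 12.1 RPKM in PC15 and 11.8 RPKM in HyB, and at 0.00882 RPKM in PC9 and 0.0284 RPKM in N001 mycelium. Its own methylation was 13.8%, 31.1%, 65.3% and 63.3% in these groups, in the order of the copy's. Gene 1036066, 289 bp from the 3900-bp copy, stood at 15.4 RPKM in PC15, was listed at 0 in PC9 and N001 mycelium, and stood at 0.0144 RPKM in HyB. Its methylation was 26.6% in PC15, 40.7% in HyB and 61.1% in N001 mycelium. Like the 3900-bp copy it had no methylation value in PC9, and whether PC9 carries this gene was not tested. Gene 165702, 1162 bp from the 3805-bp copy, stood at 0.207 RPKM in PC15 and 21.5 RPKM in PC9, with methylation of 33.5% and 0.580%. The copy itself was lower in methylation in PC9 as well. Gene 34158, 280 bp from the 2788-bp copy, stood at 0.0715 RPKM in PC15 and 11.7 RPKM in PC9, with methylation of 36.98% and 40.96%, where the copy's own methylation was 26.2% and 60.02%. The gene with the higher methylation in PC9 thus had the lower mRNA there at the 58-bp copy and the higher mRNA at the 2788-bp copy.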

How the data were processed

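The members were taken by family name alone, and they and the lists were set with earlier results of these data known. The authors deposited RPKM for gene mRNA and read counts for TE mRNA and for all small RNA, per the file headers. The deposited methylation of each copy is a fraction, shown here as percent. STAR 2.3.16 and BS-Seeker2 are named in the submitters' processing notes; the counting tool is not given in the sources used here. mRNA library totals were recovered from the RPKM values, of which 95.5% to 95.8% per library were whole reads within 0.01. Small RNA totals are gene plus TE reads. Counts were tested by edgeR 4.0.16 (quasi-likelihood, filterByExpr, library totals, no TMM; R 4.3.3) and methylation by limma 3.58.1 (limma-trend, copies with a value in every library of both groups), with all 6 groups in 1 fit, Benjamini-Hochberg adjustment over all copies tested, two-sided, threshold 0.05. DESeq2 1.42.0, TMM, no filter, missing libraries, a replicate block and, for methylation, complete copies and the arcsine scale were alternatives. The fits were tested on simulated data. Floors cover counting error only, while the SEs come from the edgeR and limma fits and include the spread between libraries. Named copies were the 5 longest, the 3 highest per table, the 3 lowest in methylation, and up to 2 largest rises and falls per comparison without overlap; copies behind small counts were added.

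Same-numbered libraries were checked for pairing by the correlation of their deviations from group means over all copies tested. Every correlation was over 0.1 for mRNA in N001 mycelium against HyB (0.220 to 0.338), primordium against mycelium (0.100 to 0.375) and fruitbody against primordium (0.190 to 0.466), and for small RNA in HyB against PC9 (0.146 to 0.207). For methylation, fruitbody against primordium had correlations of 0.685 and 0.515 over 2 pairs, too few for the rule of 3 pairs. The labels do not say what a replicate number marks.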

Additional observations from a re-analysis of the deposited data

How the results depend on the processing

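Counts of called DIRS copies stayed within 1.5 times of those reported under 176 alternatives and moved under 26. Comparisons with no reported call are among these, and no reported mRNA or small RNA count was above 7. For mRNA in PC9 against PC15 there were 2 calls with TMM inside the TE table and 10, all lower, without a filter. In HyB against PC15 there were 0 and 5, and in N001 mycelium against HyB without a filter 1. For small RNA in PC9 against PC15 (7 calls), leaving out a library gave 3 to 6, and there were 4 without PC9 replicate 1 in every comparison or without replicate 1 of every group, both chosen after seeing the data. In HyB against PC15 (2 calls) leaving out a library gave 0 to 5. TMM within TE counts gave 4 calls, and gene-based TMM factors 0 (9.64% of all copies rose and 1.58% fell). The same 2 added settings gave 6 and 6. Without PC9 replicate 1 these included a fall at the 119-bp copy from 66442 (log2 difference -3.15, edgeR adjusted p = 0.0391). In HyB against PC9 (4 calls) leaving out a library gave 3 to 7. Gene-based TMM factors left 2 (15.3% of all copies rose and 1.11% fell). DESeq2 gave 7 (3 higher and 4 lower, against 4 and 0), beside 26.2% of all 608 copies that rose and 20.9% that fell. The added settings gave 7 and 8. Without PC9 replicate 1 these included a fall at the 92-bp copy (log2 difference -4.04, edgeR adjusted p = 0.0456). In N001 mycelium against HyB (0 calls) TMM within TE counts gave 3, DESeq2 2, and the added settings 1 each. Some HyB counts with libraries left out include the 523-bp DIRS_3 copy. It passed the filter there only through HyB replicates 2 and 3 and is no support. Shares over all copies are not given here for settings without a filter or with libraries left out, so those counts are no result about DIRS copies. Methylation counts stayed within 1.5 times under every alternative run (12 to 14 against 15 for HyB and PC15 when a library was left out).

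With the replicate block, small RNA calls for PC9 against PC15 were 5 (2 higher, 3 lower) and methylation calls for HyB against PC9 were 16; the block changed no other count of DIRS calls. Over all 86 called DIRS results and their alternatives, 761 values kept sign and call, 78 kept the sign without the call and 6 turned sign. The turned values were those of the 823-bp (1.62, still called) and 4578-bp (0.66) mRNA and the 3694-bp small RNA (0.27) under TMM within TE counts, and of the 986-bp small RNA in 3 settings without PC9 replicate 1 (-0.53, -0.53 and -0.37). The causes were not tested. Most copies held too few reads for any test, methylation coverage is unknown, and primordia had 2 bisulfite libraries.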
